A study of Neurospora crassa with 22 samples.

Results

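In the filamentous fungus Neurospora crassa, the peaks of the transcription factor CLR-1 were set against those of CLR-2 in mycelium held on Avicel, which is crystalline cellulose, for 4 h. Of the 22 ChIP-seq samples of the series, 6 belong to this comparison, 3 of each factor, each with 1 deposited list of peaks. ChIP-seq sequences the DNA that an antibody recovers together with a tagged protein, and a peak is a stretch where tags pile up, with a summit at its highest point. The 6 lists hold 14939 of the 42691 peaks in the 17 lists of the series, and 14246 of them lie on the 7 chromosomes and were used. A region of a factor was a stretch covered by peaks of at least 2 of its 3 lists, and it was called shared when it overlapped a region of the other factor by at least 1 bp. This gave 1730 regions of CLR-1 and 2979 of CLR-2. Measured values played no part in the choice of the lists.

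Both strains were made in the background OR74A and grown for 16 h in Vogel's minimal medium with sucrose before the move to Avicel. The CLR-1 strain carried clr1-GFP behind the ccg-1 promoter at the his-3 locus, with the native clr-1 replaced by HygR, and the pulldown used a GFP antibody. The CLR-2 strain carried mCherry-clr2 behind the same promoter at the same locus, with the native clr-2 replaced by HygR, and the pulldown used an mCherry antibody. Both are labelled as mating type A. Neither factor was therefore made from its own promoter, and factor, tag and antibody changed together, so that their parts in any difference below cannot be told apart. The labels write the time as 4 without a unit, which is taken to mean hours on what is known of the study.

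CLR-1 and CLR-2 are zinc binuclear cluster proteins, fungal transcription factors that bind short DNA sites near the genes they control. Both are needed for growth on cellulose, where they switch on the genes of secreted cellulases and of the transporters that carry cellodextrins into the cell. In the textbook account of this pathway CLR-1 is activated when cellobiose is sensed and is needed for the expression of clr-2, and CLR-2 then drives most cellulase genes.

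The lists differed in length and in the strength of their peaks. The CLR-1 lists held 1910, 1338 and 1957 peaks on the chromosomes and the CLR-2 lists 2854, 1832 and 4355. The median number of tags per peak was 205, 39 and 256 in the CLR-1 lists and 105, 1455.5 and 290 in the CLR-2 lists. The fold of a peak is the authors' own ratio of its tags to the background, and its score is the authors' −10 log10 of the p-value. Both are used here to describe and rank peaks within a list. A CLR-1 fold or score is not compared directly with a CLR-2 one. Across the factors, ratios of median folds within a list are compared, and ranks within a list are combined. Some alternative settings also apply the same limit of fold or score to the lists of both factors. In CLR-2 list 1 the median fold was 0.5 and 95.7% of the peaks had a fold below 1, although the median score was 1232, so that the scale of the fold in this list is uncertain and a value below 1 need not mean fewer tags than the background. In CLR-2 list 3 this share was 33.3%, and in the other 4 lists it was 0%. In CLR-2 list 2 the median false discovery rate of the peaks was 100%. The deposited tables do not say which library a list came from, nor whether the libraries of a factor came from separate cultures.

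Shared regions made up 945 of the 1730 CLR-1 regions, 54.6%, and 934 of the 2979 CLR-2 regions, 31.4%. CLR-1 regions covered 2.98 Mb and CLR-2 regions 5.43 Mb of the chromosomes. The rest, 785 CLR-1 regions and 2045 CLR-2 regions, overlapped no region of the other factor and are called regions without it. Of these, 404 and 1275 also overlapped no peak in any list of the other factor, and the others overlapped a peak of at least 1 list. The regions fell into a part near genes and a part far from them, and both factors shared the far part unequally. Regions whose summit lay over 5 kb from any protein-coding gene numbered 471 for CLR-1, and 91.5% of these were shared. For CLR-2 they numbered 1452, and 27.8% were shared. Only 11.5% of the bases of the chromosomes, 4.66 Mb, lie that far from a gene. The CLR-2 regions there spanned 3.24 Mb and the CLR-1 regions 1.14 Mb, so a CLR-1 region there had little room to miss a CLR-2 region. The part of this coverage in the shares was not tested. Within 5 kb of a gene the shares were closer, 514 of 1259 CLR-1 regions (40.8%) and 530 of 1527 CLR-2 regions (34.7%). The split at 5 kb was chosen after seeing the data. With the peaks of fold below 1 left out, a limit also added after seeing the data and touched by the doubt about that scale, 29.1% of the CLR-1 and 51.3% of the CLR-2 regions were shared, so that the order of the shares turned. Without CLR-2 list 1 or list 3 the CLR-1 share was 33.4% or 31.2%, and without CLR-1 list 1 or list 3 the CLR-2 share was 15.8% or 18.8%.

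**Figure D1:**
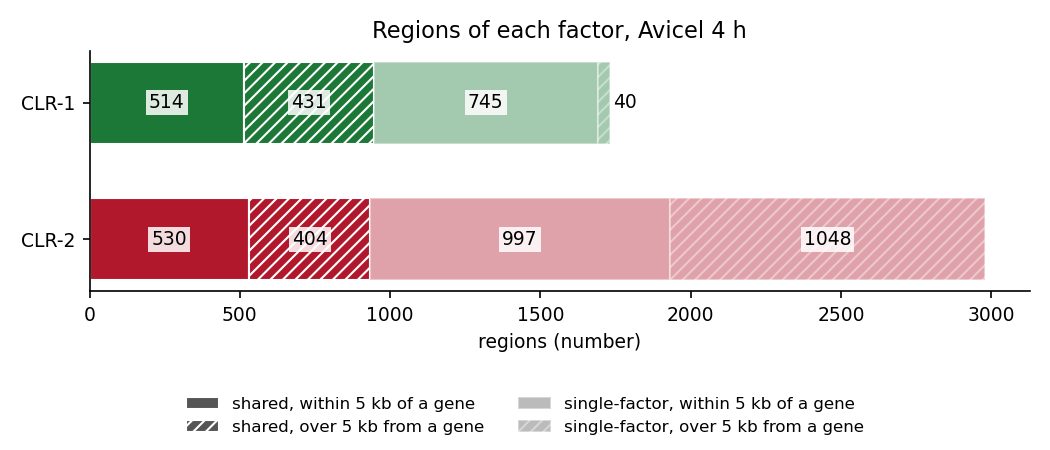
Number of regions (x axis) of CLR-1 and CLR-2 on Avicel at 4 h, divided by whether the other factor had an overlapping region (dark against pale) and by distance to the nearest protein-coding gene (plain against hatched). Of the 785 CLR-1 regions without CLR-2, 40 lay over 5 kb from a gene, and of the 2045 CLR-2 regions without CLR-1, 1048 did.

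Between pairs of lists, peaks overlapped more often within a factor than between the factors. The mean share of overlapping peaks was 58.9% over the 6 pairs within a factor and 43.0% over the 9 pairs between factors. The difference of 15.9 percentage points had p = 0.1 in an exact permutation test over the 6 lists, two-sided, and 0.1 is the smallest p that 3 lists against 3 allow. Near genes the shares were 49.6% and 34.7%, with the same exact permutation p of 0.1. The single pairs overlapped in range, between 44.2% and 67.7% within CLR-1, between 57.1% and 67.4% within CLR-2 and between 27.01% and 53.3% across the factors.

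Genes were called beside a region when their start codon lay within 1500 bp of its summit or the summit lay inside the gene. Of the 9729 protein-coding genes on the chromosomes, 983 (10.1%) were beside a CLR-1 region and 815 (8.38%) beside a CLR-2 region. Genes beside a region of each factor numbered 311 (3.20%), and 672 (6.91%) were beside CLR-1 regions only and 504 (5.18%) beside CLR-2 regions only. Without CLR-2 list 1 or list 3 the genes beside both fell to 86 or 61 and those beside CLR-2 to 249 or 183, and without CLR-1 list 1 or list 3 those beside CLR-1 fell to 396 or 485. Of 26 cellulose genes, 13 were beside regions of both factors, 6 beside a CLR-2 region only, 0 beside a CLR-1 region only and 7 beside neither. The gene lists were chosen with earlier results of these data known, so these counts are a description. Without CLR-2 list 3, 12 of the 26 were beside a CLR-2 region in place of 19, and without CLR-1 list 3, 8 were beside a CLR-1 region in place of 13.

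The endoglucanase gene gh7-1, whose product cuts inside cellulose chains, had a shared region on chromosome VI from 3893083 to 3894867 with the best median rank of all shared regions with a peak in all 6 lists. Its fold was 38.23, 88.02 and 28.96 in the CLR-1 lists and 1.77, 12.61 and 8.94 in the CLR-2 lists. The CLR-1 summits lay 478, 496 and 478 bp upstream of the start codon and the CLR-2 summits 492, 482 and 460 bp upstream. The summits of the factors interleaved, and their medians were 4 bp apart. The median summit also lies within the neighbouring gene NCU05058.

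The cellobiohydrolases, which release cellobiose from the ends of cellulose chains, had summits of both factors upstream. At cbh-1, with its region on chromosome IV from 4312639 to 4314745, the CLR-1 summits lay 421, 407 and 318 bp upstream and the CLR-2 summits 482, 745 and 456 bp upstream. All 3 CLR-2 summits lay farther from the start codon than the CLR-1 summits there. The folds at cbh-1 were 28.81, 13.36 and 22.89 for CLR-1 and 0.28, 8.12 and 7.83 for CLR-2. At gh6-3 the CLR-1 summits lay 238, 301 and 251 bp and the CLR-2 summits 250, 318 and 369 bp upstream, and the positions of the factors overlapped. At gh6-2 the CLR-1 summits lay 309, 294 and 317 bp upstream, close together, whereas the CLR-2 summits lay 1316, 220 and 724 bp upstream.

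Lytic polysaccharide monooxygenases, which cut crystalline cellulose by oxidation, make up 13 of the 26 genes, named gh61 or by locus. At gh61-3 the medians of the factors' summits were 1 bp apart, with CLR-1 summits 517, 580 and 509 bp and CLR-2 summits 516, 549 and 509 bp upstream. At gh61-4 the CLR-1 summits lay 438, 462 and 436 bp and the CLR-2 summits 392, 396 and 387 bp upstream. The groups did not overlap at gh61-4, and the gap of 46 bp exceeded the range within CLR-1 (26 bp) and within CLR-2 (9 bp). At gh7-2, of the family of gh7-1, CLR-2 folds of 4.43 and 1.95 in lists 2 and 3 stood 396 and 397 bp upstream with no CLR-1 peak, and at the endoglucanase gene gh45-1 a peak was present in CLR-2 list 3 alone, with a fold of 1.22. At gh61-5 a peak of CLR-1 was present in list 3 alone, with a fold of 5.55, and the CLR-2 folds were 0.76, 12.93 and 8.80. Its CLR-1 summit, 478 bp upstream, lay within 15 bp of the median CLR-2 summit, although the gene counted as beside CLR-2 only.

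Cellobiose dehydrogenase, which passes electrons to these monooxygenases, is encoded by cdh-1, whose summits were 23 bp apart by their medians. Its CLR-1 folds were 18.95, no peak and 8.07, and its CLR-2 folds 0.32, 9.01 and 11.12. The beta-glucosidase genes, whose products split cellobiose into glucose, differed among themselves. At gh3-3 the CLR-1 summits lay 898, 887 and 897 bp upstream, and CLR-2 had peaks in lists 2 and 3 at 888 and 892 bp. At gh1-1 the summits of both factors lay between 1348 and 1454 bp upstream. At gh3-6 CLR-1 folds of 24.32, 30.41 and 24.07 stood 1801, 1825 and 1810 bp upstream with no CLR-2 peak in any list, just outside the window used for the counts. Around gh3-4 neither factor had a peak within the window. Over the 13 genes with regions of both factors the median summits were between 1 and 2012 bp apart, and for 10 of them the gap was at most 75 bp. The widest gap, at gh61-9, does not separate the factors. The CLR-1 summits there lay 1097 and 1071 bp upstream in lists 1 and 3 and 997 bp downstream in list 2. The CLR-2 summits of lists 1 and 3 lay 940 and 942 bp downstream.

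**Figure D2:**
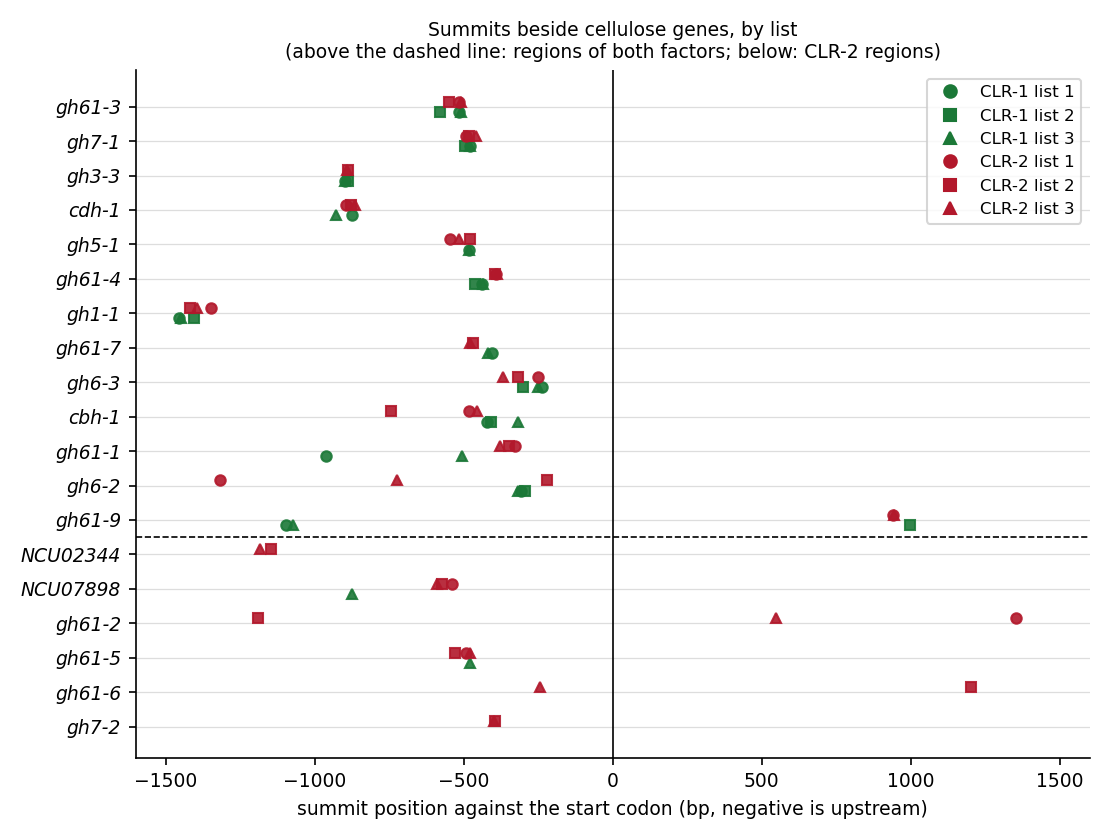
Summit position against the start codon in bp (x axis, negative upstream) at 19 cellulose genes, 1 symbol per list (green CLR-1, red CLR-2). The 13 genes above the dashed line had regions of both factors and are ordered by the gap between the factors' median summits. This gap runs from 1 bp at gh61-3 to 2012 bp at gh61-9, where the CLR-1 summits alone spanned 2094 bp. The 6 genes below the line had a CLR-2 region only.

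Genes for the hemicelluloses xylan and mannan were divided between the factors. Of the 9 xylan genes, 2 were beside both, 2 beside CLR-1, 2 beside CLR-2 and 3 beside neither, where 3.20%, 6.91% and 5.18% of all genes were beside both, CLR-1 only and CLR-2 only. With a window of 1000 bp, 0 of the 9 and 2.48% of all genes were beside both, and with 3000 bp 3 of the 9 and 6.08% of all genes were. At the endoxylanase gene gh11-2, whose product cuts xylan chains, the CLR-1 summits lay 1019 and 1034 bp upstream in lists 1 and 3, and the CLR-2 summits 1004, 1028 and 1048 bp upstream. The endoxylanase genes gh10-1 and gh11-1 had peaks in all 3 CLR-2 lists and in no CLR-1 list within 1500 bp. At gh10-1 CLR-1 peaks of lists 1 and 3, with folds of 8 and 10.44, lay farther off, 2894 and 2915 bp upstream. The CLR-2 folds were 0.33, 5.10 and 2.44 at gh10-1 and 0.38, 8.62 and 4.72 at gh11-1. Conversely, xylose reductase (xr) had CLR-1 peaks in lists 1 and 3, with folds of 9.14 and 7.91, and no CLR-2 peak. At the xylosidase gene gh43-5 the CLR-1 folds were 17.02, 6.20 and 12.47, and a CLR-2 peak of fold 1.66 in list 3 alone lay 15 bp from the median CLR-1 summit. The mannanase gene gh5-7 had both factors, with a gap of 19.5 bp between median summits, and the beta-mannosidase gene gh2-1 had CLR-2 peaks in lists 2 and 3 alone. The glucoamylase gene gla-1, whose product degrades starch, was beside CLR-2 only, with folds of 0.73, 2.04 and 1.48, and the CLR-1 summits there, in lists 2 and 3, lay 2773 bp apart. The summit of CLR-1 list 2, with a fold of 8.76, lay 1581 bp downstream of the start codon. The CLR-2 summits lay 1582, 2318 and 1681 bp downstream of it.

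The cellodextrin transporter gene cdt-1 carried CLR-1 summits 1006, 1005 and 1000 bp upstream. The CLR-2 summits there were spread over 1026, 734 and 377 bp, and none of them lay among the CLR-1 summits, to which that of list 1 was the nearest. For cdt-2, the other cellodextrin transporter gene, and for the glucose transporter gene hgt-1 no region lay within the window.

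Among 7 regulators of carbon use, 1 was beside both factors, 1 beside CLR-1, 1 beside CLR-2 and 4 beside neither at 1500 bp. With a window of 3000 bp the counts were 4, 2, 0 and 1, while over all genes those beside both rose from 3.20% to 6.08% and those beside CLR-1 from 10.1% to 16.1%. At 1500 bp the gene beside both was clr-1, that beside CLR-1 was col-26 and that beside CLR-2 was clr-3. The call at clr-3 rested on the midpoint of 2 distant CLR-2 summits and no list had a summit in that window, which was so for 1 of the 815 genes beside CLR-2. At clr-3, a repressor of CLR-1 activity, CLR-1 folds of 31.33, 38.71 and 27.85 stood 1810, 1823 and 1811 bp upstream, and CLR-2 folds of 4.2 and 2.3 in lists 2 and 3 stood 1835 and 1817 bp upstream. At col-26, a regulator of starch and glucose use, CLR-1 folds of 8.21 and 8.15 in lists 1 and 3 stood 1486 and 1463 bp upstream, and a CLR-2 fold of 2.49 in list 3 alone stood 1487 bp upstream. At xlr-1, the gene of the activator of xylanase genes, neither factor had a peak in the 1500 bp window. At cre-1, the carbon catabolite repressor, CLR-1 summits lay 1842, 1888 and 1859 bp upstream, and the CLR-2 summits of lists 1 and 3 lay 1854 and 1857 bp upstream. At vib-1, a transcription factor also needed for growth on cellulose, CLR-1 folds were 15.33, 7.37 and 12.15, 2623 to 2666 bp upstream, and no CLR-2 list had a peak. For clr-2 the CLR-1 peaks of lists 1 and 3 lay 1596 and 1571 bp upstream, and the CLR-2 peaks of lists 2 and 3 lay 2035 and 1912 bp upstream. A peak of CLR-1 list 2, with a fold of 14.21, lay inside clr-2, 2785 bp downstream of its start codon. At clr-1 the summits of CLR-1 lay 3051, 3099 and 3057 bp downstream of the start codon, within the gene, with folds of 35.16, 75.11 and 26.74. The CLR-2 folds at clr-1 were 0.52, 1.93 and 1.64. The native clr-1 is deleted in the CLR-1 strain and a tagged copy of the gene sits at his-3, so tags from the construct would map to these coordinates, and their part in the peak was not tested.

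Genes outside carbon use were looked at in the same way. Of 9 housekeeping genes, 0 were beside both, 2 were beside CLR-1 only (act, actin, and gpd-1, a glycolytic enzyme) and 7 beside neither. Since 3.20% of all genes were beside both and 6.91% beside CLR-1 only, lists this short do not set these genes apart from the rest. At act the CLR-1 folds were 7.34, 8.76 and 11.11, with summits 1464, 1483 and 1456 bp upstream. Of 7 ribosomal protein genes, 1 (crp-7) was beside a CLR-1 region and 6 beside neither. The construct genes his-3 and ccg-1 were beside no region, with a peak in CLR-2 list 1 alone at folds of 0.27 and 0.52.

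At shared regions near genes the summits of CLR-1 and CLR-2 lay about as far apart as those of CLR-2 lists 1 and 3, and farther apart than those of 2 CLR-1 lists. The median distance was 41, 27.5 and 35 bp for the pairs of CLR-1 lists. Between CLR-1 lists and CLR-2 lists 1 and 3 it ranged from 45 to 88.5 bp, and between CLR-2 lists 1 and 3 it was 65.5 bp. Pairs with CLR-2 list 2 stood apart, with medians of 743 to 820 bp against CLR-1 lists and of 908 and 665 bp against the other CLR-2 lists. Over the 15 pairs, the mean was 299.5 bp between factors and 290.3 bp within them, a difference of 9.17 bp (exact permutation test over lists, two-sided, p = 0.9). Without CLR-2 list 2 the difference was 15.8 bp, and the exact permutation p of 0.1 was the smallest that design allows. Over 5 kb from a gene the pair medians were longer, 354 to 777 bp within CLR-1, 431.5 to 1711 bp between factors and 1063 to 2267 bp within CLR-2.

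**Figure D3:**
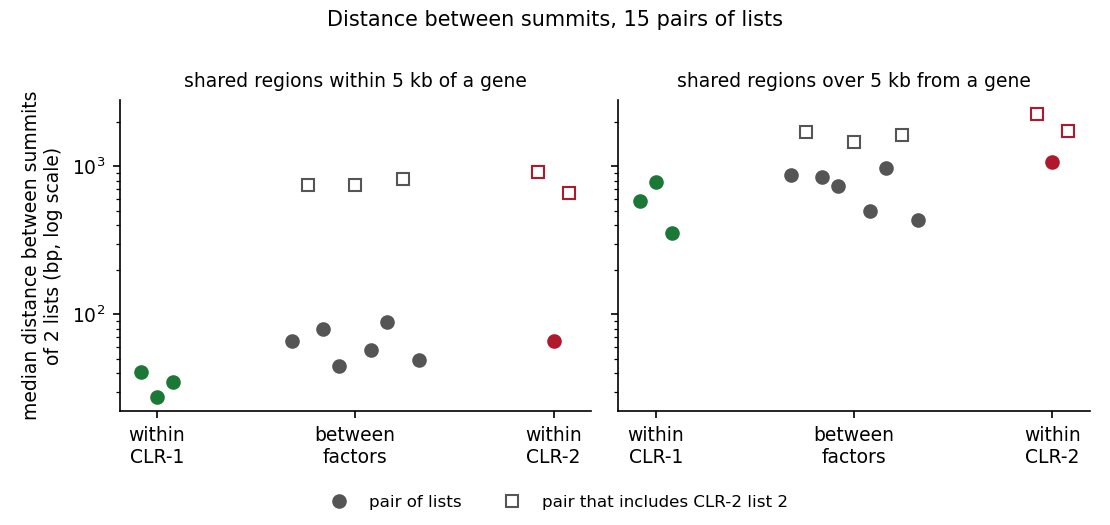
Median distance in bp (y axis, log scale) between the summits of 2 lists at shared regions, 1 symbol for each of the 15 pairs of lists, near genes (left) and over 5 kb from a gene (right). Open squares are pairs with CLR-2 list 2, which lie at 665 to 908 bp near genes, and the other pairs there lie at 27.5 to 88.5 bp.

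Neither factor sat upstream of the other on the whole. Offsets were measured along the strand of the nearest start codon. Positive is towards the start codon for summits upstream of it and away from it for summits downstream. Of the shared CLR-1 regions near genes 11.5% lay within 1000 bp downstream of one. The median offset of CLR-2 from CLR-1 was between −7 and 13.5 bp in the 9 pairs of lists, above 0 in 6, below 0 in 2 and 0 in 1. The mean over pairs was 2.56 ± 5.94 bp (SD, 9 pairs, which share lists).

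Shared regions near genes fell into close and distant pairs of summits. The median summits were at most 100 bp apart in 259 of 514 regions and over 500 bp apart in 158. In the close regions the median CLR-1 folds were 8.08, 15.09 and 6.70, and in the distant ones 4.53, 5.75 and 4.61, lower in 3 of 3 lists. The CLR-2 medians were 0.68, 2.69 and 1.51 in the close regions and 0.73, 2.39 and 1.22 in the distant ones, lower in 2 of 3 lists. Peaks of XLR-1, the activator of xylanase genes, overlapped 58.3%, 49.0% and 45.6% of the close regions in its 3 lists on Avicel, and 20.3%, 16.5% and 32.9% of the distant ones. The close summits lay inside a gene in 40.9% of regions and the distant ones in 11.4%. Of the XLR-1 summits in its lists on Avicel 77.8%, 62.7% and 83.4% lay inside a gene. The distant regions were also longer, with a median length of 2021.5 bp against 1034 bp. CLR-2 list 2, whose summits lay 665 bp or more from those of every other list by the pair medians, had a peak in 121 of the 158 distant regions (76.6%) and in 96 of the 259 close ones (37.1%), so the split follows in part where that list had a peak. The part of length, of lying inside a gene and of CLR-2 list 2 in these differences was not tested.

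The regions with the widest gap relative to the spread within factors show what a distant pair looks like. Beside NCU09426 on chromosome VII the median summits of the factors were 3183 bp apart within a region of all 6 lists, with ranges of 16 bp within CLR-1 and 539 bp within CLR-2. Its CLR-1 folds were 19.06, 29.82 and 21.94, and its CLR-2 folds 0.71, 2.41 and 0.97. Beside NCU09939 the gap was 1178 bp, against ranges of 66 and 476 bp. At both loci every CLR-2 summit lay inside the span of the CLR-1 region.

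CLR-1 peaks lay upstream of genes more often than CLR-2 peaks. The summits at most 1000 bp upstream of a start codon made up 21.5%, 14.9% and 29.8% of the CLR-1 lists and 8.06%, 8.02% and 10.3% of the CLR-2 lists. The groups did not overlap, with 22.1 ± 7.46% against 8.80 ± 1.31% (SD, n = 3 lists each, exact permutation test, two-sided, p = 0.1, the smallest possible). Summits over 5 kb from a gene made up 29.7%, 23.8% and 20.6% of the CLR-1 lists and 40.1%, 44.5% and 30.3% of the CLR-2 lists. The groups again did not overlap, 24.7 ± 4.62% against 38.3 ± 7.29% (SD, n = 3 lists each, exact permutation test, two-sided, p = 0.1). The limit of 5 kb was chosen after seeing these data, so this p is a description only. The share of summits inside a gene was 19.7%, 36.2% and 21.4% for CLR-1 and 23.4%, 8.02% and 42.4% for CLR-2, and these overlapped (exact permutation p = 1.0). The median distance to a start codon was 2389.5, 1912 and 1494 bp for CLR-1 and 3826, 5039.5 and 1980 bp for CLR-2, which overlapped as well. The means differed by 1683 bp (exact permutation p = 0.2), by 4167 bp with each list cut to its best-scored peaks, as many as the shortest list holds, by 2501 bp without CLR-2 list 3 (exact permutation p = 0.1 in both, the smallest either design allows) and by 476.5 bp near genes (exact permutation p = 0.4).

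**Figure D4:**
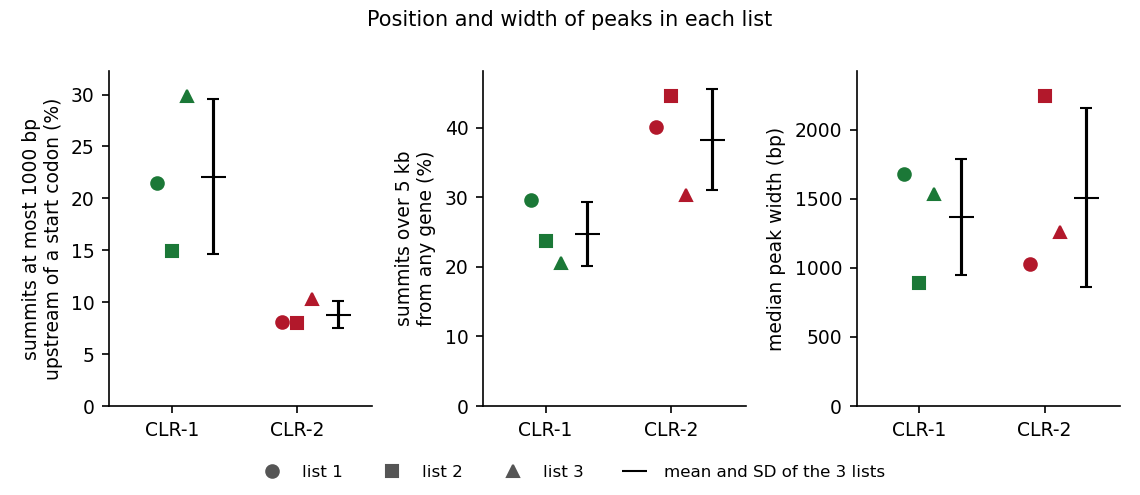
Share of summits at most 1000 bp upstream of a start codon, share over 5 kb from any gene, and median peak width in bp (y axes) in each list of CLR-1 and CLR-2, with the mean and SD of the 3 lists in black. The upstream shares are 14.9% to 29.8% for CLR-1 and 8.02% to 10.3% for CLR-2, while the widths overlap.

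Peak widths of the factors overlapped. Median widths were 1681.5, 893.5 and 1533 bp in the CLR-1 lists and 1025.5, 2242 and 1258 bp in the CLR-2 lists, and the lists of a factor differed more than the factors did. The mean was 1369 ± 419 bp for CLR-1 and 1508.5 ± 646 bp for CLR-2 (SD, n = 3 lists each, exact permutation test, two-sided, p = 0.8). With the lists cut to equal length in the same way CLR-2 peaks were wider by 969 bp, with an exact permutation p of 0.1, the smallest possible. Peaks at shared regions were wider than those at regions of 1 factor in all 6 lists. The medians at shared and single-factor regions were 2462 and 1136.5, 1049 and 816.5, and 2449 and 1424 bp in the CLR-1 lists. They were 2341 and 1104, 2562 and 2169, and 1882 and 1297.5 bp in the CLR-2 lists. Near genes the medians were 1581 and 1115, 956 and 805, and 1849.5 and 1413 bp in the CLR-1 lists. In the CLR-2 lists they were 1001 and 924, 2497 and 2074.5, and 1457 and 1274 bp there. The mean log2 ratio of shared to single-factor medians was 0.75 for CLR-1 and 0.62 for CLR-2, and near genes it was 0.38 and 0.19. A wider peak has more room to overlap another, and the part of width in the call of sharing was not tested.

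CLR-1 regions without CLR-2 lay upstream of genes more often than shared ones, 35.3% of them within 1000 bp of a start codon against 11.7% of the shared ones. Of the 404 with no CLR-2 peak in any list 37.1% did. Near genes alone these shares were 37.2% and 21.6%. CLR-2 regions went the other way, with 3.91% of the regions without CLR-1 and 10.5% of the shared ones in that window, or 8.02% and 18.5% near genes. Regions between divergent genes, that is, between 2 start codons, made up 26.1% of the CLR-1 regions without CLR-2, 12.8% of the shared CLR-1 regions and 8.31% of the CLR-2 regions without CLR-1. Regions over 5 kb from a gene, 5.10%, 45.6% and 51.2% of these sets, were a class apart and lower the shares unequally. Near genes the divergent regions numbered 205 of 745, 121 of 514 and 170 of 997. Of all neighbouring gene pairs 20.4% were divergent, with a strand unknown in 23.3%.

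CLR-1 peaks had lower folds at shared regions than at regions without CLR-2, and CLR-2 peaks had higher folds at shared regions than at regions without CLR-1. The median CLR-1 folds at shared and single-factor regions were 4.01 and 6.87, 6.52 and 10.6, and 3.17 and 8 in the 3 lists. The median CLR-2 folds were 0.68 and 0.49, 2.35 and 2.21, and 1.13 and 0.96. The log2 ratio of shared to single-factor medians was −0.94 ± 0.35 for CLR-1, below 0 in 3 of 3 lists, and 0.27 ± 0.19 for CLR-2, above 0 in 3 of 3 (SD, n = 3 lists each). The ratios differed by 1.20 (exact permutation test, two-sided, p = 0.1, the smallest possible). That p follows whenever the lists of the factors fall on opposite sides of 0. Near genes alone the CLR-1 ratio was −0.16 ± 0.20, above 0 in 1 of 3 lists. The CLR-2 ratio near genes was 0.25 ± 0.21, above 0 in 3 of 3.

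The best-ranked regions of a single factor differed in where they lay. A CLR-1 peak in all 3 lists and none in any CLR-2 list marked 76 regions, 74 of them within 5 kb of a gene. The best ranked of these were the regions beside gh3-6, beside NCU01003, with folds of 25.14, 11.70 and 18.92, and beside NCU06043, with folds of 19.72, 12.73 and 19.41. Also among the best 10 was the region 1645 bp upstream of parp, a poly(ADP-ribose) polymerase gene, with folds of 25.96, 30.88 and 21.92. A CLR-2 peak in all 3 lists and none in any CLR-1 list marked 396 regions, 248 of them over 5 kb from a gene. Of its 10 best ranked regions, gh10-1, gh11-1 and the region beside NCU06872 lay within 5 kb of a gene. The best ranked, on chromosome V from 2599387 to 2602980, lay 8010 bp from the nearest gene with folds of 0.67, 2.24 and 1.31. Among shared regions with a peak in all 6 lists, cbh-1, gln-1, gh6-3 and NCU05864 were tied behind gh7-1, each with a median rank of 9. The region of gln-1, the glutamine synthetase gene, lay 3670 bp upstream on chromosome V from 4398933 to 4402956. Its folds were 38.07, 111.06 and 27.23 for CLR-1 and 2.39, 2.91 and 4.34 for CLR-2. At NCU05864 the folds were 31.11, 18.08 and 24.67 for CLR-1 and 0.49, 9.73 and 6.68 for CLR-2. Ranks are tied among peaks with a score of 3100, which numbered 33, 1 and 56 in the CLR-1 lists and 963, 11 and 122 in the CLR-2 lists, while 0, 1 and 2 and 28, 1 and 14 peaks scored higher, up to 3233.

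Part of the regions far from genes lay in long gene-free stretches. The longest such stretch of each of the 7 chromosomes, between 119.6 and 347.8 kb, held 537 CLR-2 regions, which covered 26.2% to 79.2% of it, and 96 CLR-1 regions, which covered 9.29% to 18.0%. Of the CLR-1 regions there, 90 were shared. These stretches make up 32.9% of the bases over 5 kb from a gene, and they held 20.2% of the CLR-1 regions and 35.2% of the CLR-2 regions that far from a gene. The CLR-1 lists had 166, 57 and 95 peaks in these 7 stretches and the CLR-2 lists 476, 271 and 455. Other samples differed there: V5-tagged CLR-1 had 237 peaks, the CLR-1 lists from sucrose 240 and 0, CLR-1 after 24 h on Avicel 76, CLR-2 after 24 h on Avicel 0, and the 6 lists of XLR-1 between 1 and 12. The label of the V5 library names no antibody.

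The other lists of the series overlapped shared and single-factor regions near genes to unlike extents, in directions that differed between lists. The list of V5-tagged CLR-1 on Avicel at 4 h overlapped 75.7% of the shared CLR-1 regions near genes, 33.96% of the CLR-1 regions without CLR-2 and 31.3% of the CLR-2 regions without CLR-1. Over all regions, near genes or not, it overlapped 74.3% of the shared CLR-1 regions and 35.4% of those without CLR-2. Where regions had to be in all 3 lists of a factor these values were 80.8% and 83.1%, so that the gap between them was not seen. CLR-1 on Avicel at 24 h went the other way, with 45.9% of the shared CLR-1 regions and 72.9% of those without CLR-2. The lists of CLR-1 on sucrose differed from each other, the first overlapping 72.2% of the shared and 46.3% of the CLR-1 regions without CLR-2, and the second 34.8% and 70.2%. The list of CLR-2 on Avicel at 24 h came from a heterokaryon that is not labelled as lacking the native clr-2. Its peaks covered 13.6% of the chromosomes. Near genes it overlapped 34.7% of the shared CLR-2 regions and 17.6% of the CLR-2 regions without CLR-1. Of the CLR-1 regions near genes it overlapped 47.2% of those without CLR-2 and 34.05% of the shared ones. Over 5 kb from a gene that list overlapped 2.48% of the shared CLR-2 regions and 0.286% of the others. XLR-1 on xylan overlapped 35.0%, 31.7% and 23.5% of the shared CLR-1 regions near genes, and 17.2%, 20.7% and 15.8% of those without CLR-2. These groups have 1 to 3 lists, so the shares are given without a test.

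**Figure D5:**
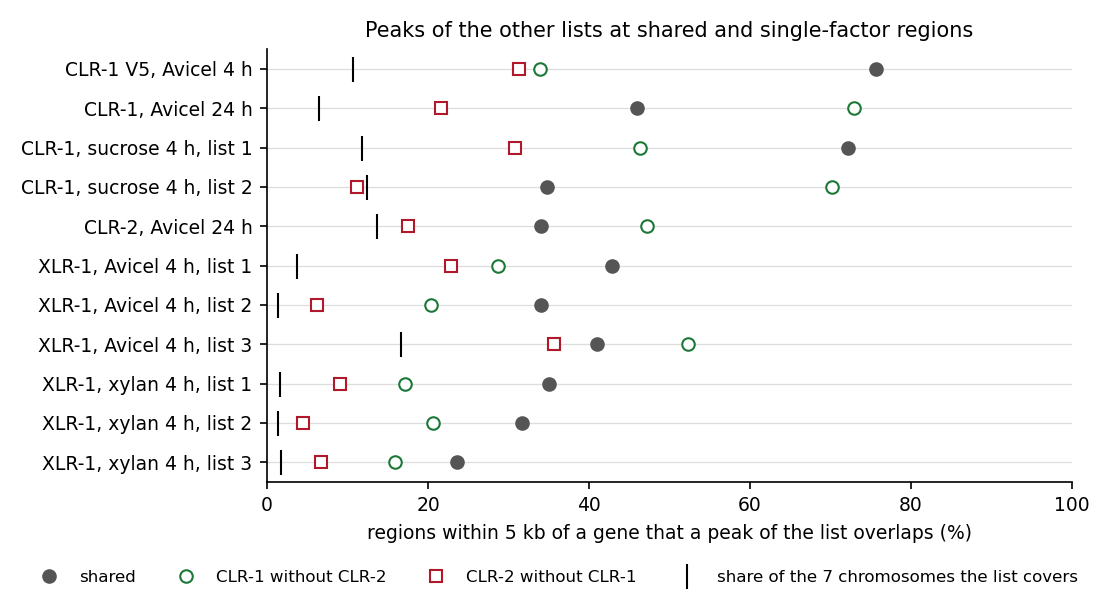
Share of regions within 5 kb of a gene that a peak of another list overlapped (x axis, percent), for shared CLR-1 regions (grey), CLR-1 regions without CLR-2 (green) and CLR-2 regions without CLR-1 (red). The bar marks the share of the 7 chromosomes that the list covers. The V5 list overlapped 75.7% of the shared and 33.96% of the CLR-1 regions without CLR-2, and CLR-1 at 24 h 45.9% and 72.9%.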

How the data were processed

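Per the submitters' processing notes, Bowtie2 was used for alignment, and per the file headers MACS called the peaks. The sources used here do not state settings, versions or the control behind the peaks. Tags were deposited per peak as a count, scores as −log10 of the p-value times 10 per the file headers, fold as the authors' ratio of tags to background, and the false discovery rate was deposited as a percent. Library totals are unknown, so no interval or floor that needs depth was computed. Positions are in bp on chromosomes named as in the NC12 assembly. Input and mock samples have no list here.

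Each list is 1 replicate. Start codons came from the deposited tables for 8356 of 9729 genes, 6873 from the flanking-gene columns and 1483 from distances, with the strand of the latter inferred. A position was accepted inside its gene or within 3 bp of its ends. Genes with no start codon could be beside a region only by a summit inside them. The summit of a list at a region is that of its best-scored peak, and that of a region is the median over lists, so 2 distant summits give a midpoint. Factors were compared with exact permutation tests over lists. Shares carry counts and no test.

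Genes and regions were named from the members of 9 gene lists, the 10 best-ranked shared regions with a peak in all 6 lists, the 10 best-ranked regions of each factor alone, and the 5 shared regions with the widest gap between summits against their spread. Members and lists were chosen with earlier results of these data known. The alternatives were another definition of regions, other overlaps, thresholds, windows and summits, equally long lists and each list left out. The split at 5 kb from a gene, pairs of lists and the limit at a fold of 1 were added after seeing the data. Values of p that rest on them are a description only. Sequences were not used here. The methods were tested on simulated data. Python 3.11.15, pandas 2.3.3, numpy 2.4.6 and matplotlib 3.10.9 were used.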

Additional observations from a re-analysis of the deposited data

Results flagged for a closer look

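The fold of a peak at shared against single-factor regions moved in opposite directions for the factors. The log2 ratio of the medians was −0.94 for CLR-1 and 0.27 for CLR-2, a difference of 1.20. It was flagged because every CLR-1 list lay below 0 and every CLR-2 list above 0. Such a split fixes the two-sided exact permutation p over 3 lists against 3 at 0.1, the smallest possible. The p therefore adds nothing to the flag. Near genes the difference was 0.40, with the same exact permutation p of 0.1 and 1 of 3 CLR-1 lists above 0.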

How the results depend on the processing

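The number of shared regions and of genes beside both factors moved with many settings. With all 3 lists needed, 30.5% of the CLR-1 regions (198) and 10.9% of the CLR-2 regions (224) were shared, with summits within 500 bp 31.4% (544) and 18.5% (550), with scores of at least 100 43.8% (432) and 17.2% (450), and with equally long lists 37.99% (479) and 29.0% (442). With a fold of at least 2, which left 2 peaks in CLR-2 list 1, they were 4.28% (74) and 65.1% (69), with a false discovery rate of at most 5%, which left 3 peaks in CLR-2 list 2, 36.4% (629) and 52.5% (608), and without folds below 1 29.1% (504) and 51.3% (563). Near genes they were 40.8% (514) and 34.7% (530). For CLR-2, chains of overlapping peaks gave 46.9% and an overlap of 50% gave 29.1%. With each list left out in turn the shares ranged from 31.2% to 69.8% (516 to 853) for CLR-1 and from 15.8% to 34.9% (472 to 914) for CLR-2. Genes beside both factors numbered 36 (all 3 lists), 204 (score), 43 (fold of at least 2), 128 (false discovery rate), 104 (equal lists), 125 (without folds below 1) and 592 (3000 bp), and 61 to 275 with a list left out. Genes beside CLR-1 numbered 343 (all 3 lists), 1567 (3000 bp) and 396 to 983 (a list left out), and beside CLR-2 134, 64, 230, 193, 273 and 1415 under the settings named for both factors other than the score, and 183 to 815 with a list left out.

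The distance between summits, between minus within factors, was −58.0 bp over all shared regions, 27.2 bp for peaks at most 2000 bp wide, 9.17 bp near genes and −273.5 to 279.8 bp with a list left out. Near genes it was −25.4 bp with equal lists and −139.6 to 292.1 bp with a list left out, and the exact permutation p was 0.1 to 0.9. The difference in width was 969 bp with equal lists (exact permutation p = 0.1) and −227.6 to 380.7 bp with a list left out, and that in distance to a start codon was 4167 bp with equal lists (exact permutation p = 0.1) and 971 to 2501 bp with a list left out. The share inside genes, CLR-2 minus CLR-1, was −1.16 percentage points, 3.96 near genes and −10.1 to 7.12 with a list left out. The CLR-1 log2 ratio of folds was −1.30 with all 3 lists needed and −0.16 near genes. Over all regions, the V5 list overlapped 80.8% of the shared CLR-1 regions with all 3 lists needed, and 83.1% of the single-factor ones (52.8% with equal lists). Of CLR-2 regions it overlapped 82.4% (chains), 79.9% (all 3 lists) and 78.7% (equal lists) of the shared and 32.2%, 62.9%, 65.6% and 31.3% (near genes) of the single-factor ones. The causes of these shifts were not tested. The upstream share, CLR-2 minus CLR-1, stayed between −18.4 and −6.67 percentage points under all alternatives run. No paired analysis was possible because the factors share no library number and the lists carry none. With 3 lists a side, tests could not go below 0.1, depth per library is unknown, and the motif search was not run.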
